A study of Mus musculus with 32 samples.

Results

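The genes of MHC class II antigen presentation were followed through the gut of percc1-/- mice and wild-type controls. The members were 7 genes, chosen by name: H2-Aa, H2-Ab1, H2-Eb1, H2-DMa, H2-DMb1, Cd74 and Ciita. They were 7 of 22505 genes with a symbol in the deposited tables, and all 7 had a value in each of the 32 libraries. Total RNA, with ribosomal RNA removed, had been sequenced from 16 pairs of libraries, each pair holding 1 percc1-/- and 1 wild-type library of one region and stage.

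Both genotypes had a mixed 129SvEv and C57BL/6 background, and the line was kept by crossing siblings. In percc1-/- mice, 1512 bp of chromosome 17 (25175032 to 25176543, stated as mm9) had been replaced in W4/129S6 embryonic stem cells, and a loxP site was left behind. Small intestine gave 7 pairs: the top part at P1, P5 and P15 (postnatal days 1, 5 and 15) and the bottom part at P1, P5, P10 and P20. Stomach gave 5 pairs: the whole organ at P1 and P5, and its bottom part at P10, P15 and P20. Large bowel gave 3 pairs: colon and rectum together at P1, and each of them alone at P5. The whole gut of E14.5 embryos gave 1 pair. Every region and stage thus had 1 library of each genotype. Whether each library is a separate animal, and whether the regions of one stage share animals, is not given in the labels. P-values therefore measure the spread between libraries, part of which may be technical. Shared animals could make them too small or, for contrasts between regions, too large. No record carried the symbol Percc1, so the genotype labels were not checked by the level of the targeted gene.

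MHC class II molecules are surface proteins that show peptides, taken from proteins the cell has engulfed, to CD4+ T cells. Dendritic cells, macrophages and B cells carry them, and interferon-gamma can induce them in other cells, among them the epithelium of the gut. H2-Aa and H2-Ab1 encode the alpha and beta chains of the I-A molecule, and H2-Eb1 the beta chain of I-E. Cd74 encodes the invariant chain, which fills the peptide groove while the molecule travels to the endosome. H2-DMa and H2-DMb1 encode chains of the DM molecule, which loads peptides there. Ciita encodes the coactivator that switches on the class II genes through factors bound to their promoters (the RFX complex at the X box and NF-Y at the Y box).

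Promoter sequences are shown because the class II genes are known for a shared promoter layout and their levels were correlated in these libraries. RefSeq promoters (GRCm38.p6) matched 4 of the 7 members, with 5 promoters, and the 250 bases before each start were read. Promoters of H2-Ab1, Cd74 and Ciita were not used here. The 3 windows with the layout are chr17:34287824-34288073 (minus strand, H2-Aa), chr17:34305617-34305866 (plus strand, H2-Eb1) and chr17:34152941-34153190 (plus strand, H2-DMb1). The window chr17:34122582-34122831 (plus strand), listed for H2-DMa, is also shown. Capitals mark the letters GNAACT, found in the X box, and TGATTGG, found in the Y box. Each line is given 5′ to 3′ and ends at the base before the start.
H2-Aa: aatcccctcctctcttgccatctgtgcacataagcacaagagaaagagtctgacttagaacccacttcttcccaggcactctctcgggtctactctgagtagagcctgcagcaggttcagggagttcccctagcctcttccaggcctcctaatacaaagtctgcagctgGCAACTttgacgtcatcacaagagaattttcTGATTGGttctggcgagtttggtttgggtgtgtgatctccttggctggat
H2-Eb1: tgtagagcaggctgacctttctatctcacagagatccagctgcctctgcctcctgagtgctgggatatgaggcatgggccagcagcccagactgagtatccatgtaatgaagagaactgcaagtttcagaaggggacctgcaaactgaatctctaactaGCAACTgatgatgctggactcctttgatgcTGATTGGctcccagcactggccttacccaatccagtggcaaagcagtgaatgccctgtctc
H2-DMb1: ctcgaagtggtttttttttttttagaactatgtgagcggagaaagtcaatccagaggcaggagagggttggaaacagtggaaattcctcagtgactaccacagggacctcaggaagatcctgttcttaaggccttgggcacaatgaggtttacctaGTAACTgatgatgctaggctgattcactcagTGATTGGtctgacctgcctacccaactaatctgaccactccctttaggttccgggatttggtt
H2-DMa: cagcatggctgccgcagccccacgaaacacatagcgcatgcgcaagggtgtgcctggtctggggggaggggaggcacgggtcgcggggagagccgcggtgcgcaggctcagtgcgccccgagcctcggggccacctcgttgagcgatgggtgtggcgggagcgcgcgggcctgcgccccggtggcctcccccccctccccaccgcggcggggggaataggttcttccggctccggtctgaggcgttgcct

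In H2-Aa the X box letters began 81 bases and the Y box letters 50 bases before the start, with 25 bases between them. In H2-Eb1 they began at 91 and 61 bases, with 24 between. In H2-DMb1 they began at 94 and 63 bases, again with 25 between. Neither of the 2 windows listed for H2-DMa held the pair of motifs. These windows end at 34122831 and 34125517, and that of H2-DMb1 at 34153190. In the mm9 annotation H2-DMa and H2-DMb1 begin closer together, at 34272127 and 34290017. By their place relative to H2-DMb1, both windows lie upstream of the H2-DMa gene of that annotation. The bases just before its start there were not read, so whether the H2-DMa promoter has the layout is not shown by these windows. The motif pair in this order, 10 to 35 bases apart and searched on both strands, stood in 65 of 32851 promoters of the same length (0.198%). TGATTGG alone stood in 7.23% and GNAACT alone in 37.3%. The letters searched were chosen after these sequences had been read, so the matches are a description.

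In the mm9 annotation the 5 H2 genes lie in the class II region of chromosome 17, between 34272127 and 34453144. That span of 181 kb begins 9.10 Mb from the stated deletion. If the stated positions are read on GRCm38, the distance is 8.94 Mb. H2-DMa lies at 34272127 to 34276046, H2-DMb1 at 34290017 to 34297168, H2-Ab1 at 34400154 to 34406363 and H2-Eb1 at 34442828 to 34453144, all on the plus strand. H2-Aa lies on the minus strand, at 34406276 to 34424772. Ciita is on chromosome 16 (10480237 to 10527657) and Cd74 on chromosome 18 (60963502 to 60972300).

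The deposited values were FPKM (fragments divided by transcript length and by library size), with lower and upper bounds and no counts. They were rescaled so that the median ratio of 10132 genes was equal between libraries. Records with a gene symbol held 16.8% to 60.2% of a library's FPKM. At P15, the bottom stomach library labelled percc1-/- stood apart, at 60.2% against 33.3% in its pair, with 55408 records against 119392. Tests of the members that include it are also given without its pair. Correlations, ranges, summed marker levels and tests of other genes are given with it only. The deposited bounds lay a median of 12.4% of the value away for Cd74 and 46.2% for Ciita, the member with the lowest level. The record of Ciita had the same span in 10 libraries, against 31 or 32 for each other member. Its FPKM may thus rest on different lengths in different libraries.

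Class II transcripts were present in every library and were highest in the small intestine. Over the 32 libraries Cd74 ranged from 3.64 to 32.1 rescaled FPKM (median 22.1), the highest median of the 7. H2-Aa ranged from 1.37 to 24 (median 14.51), and its partner H2-Ab1 from 2.0 to 20.2 (median 11). H2-Eb1 lay between 0.676 and 14 (median 7.10). The loading chains H2-DMa and H2-DMb1 had medians of 3.07 and 2.43, and Ciita had a median of 1.36, with a range of 0.296 to 6.10. FPKM is a level per length, and this is the order of the levels as recorded. Reads shared between like genes and varying record spans may shift a level. H2-DMa and H2-DMb1 did not differ beyond their spread: the ratio of H2-DMa to H2-DMb1 ran from 0.572 to 2.04. The order of H2-Aa and H2-Ab1 was not the same in every library either, with a ratio from 0.682 to 1.46 (median 1.15).

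For 6 of the 7 members the lowest level was found in the E14.5 whole gut, where 1 library stood for each genotype and no test was made. The exception was Ciita, lowest (0.296) in the percc1-/- colon with rectum at P1. H2-Aa had 2.71 rescaled FPKM in the wild-type library and 1.37 in the percc1-/- one. Cd74 had 5.59 and 3.64, H2-Ab1 2.18 and 2.0, and Ciita 0.696 and 0.489. H2-Eb1 had 1.35 and 0.676. H2-DMa had 1.37 and 1.02, and H2-DMb1, at 0.669 and 0.879, was the member with the higher value in the percc1-/- library.

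**Figure D1:**
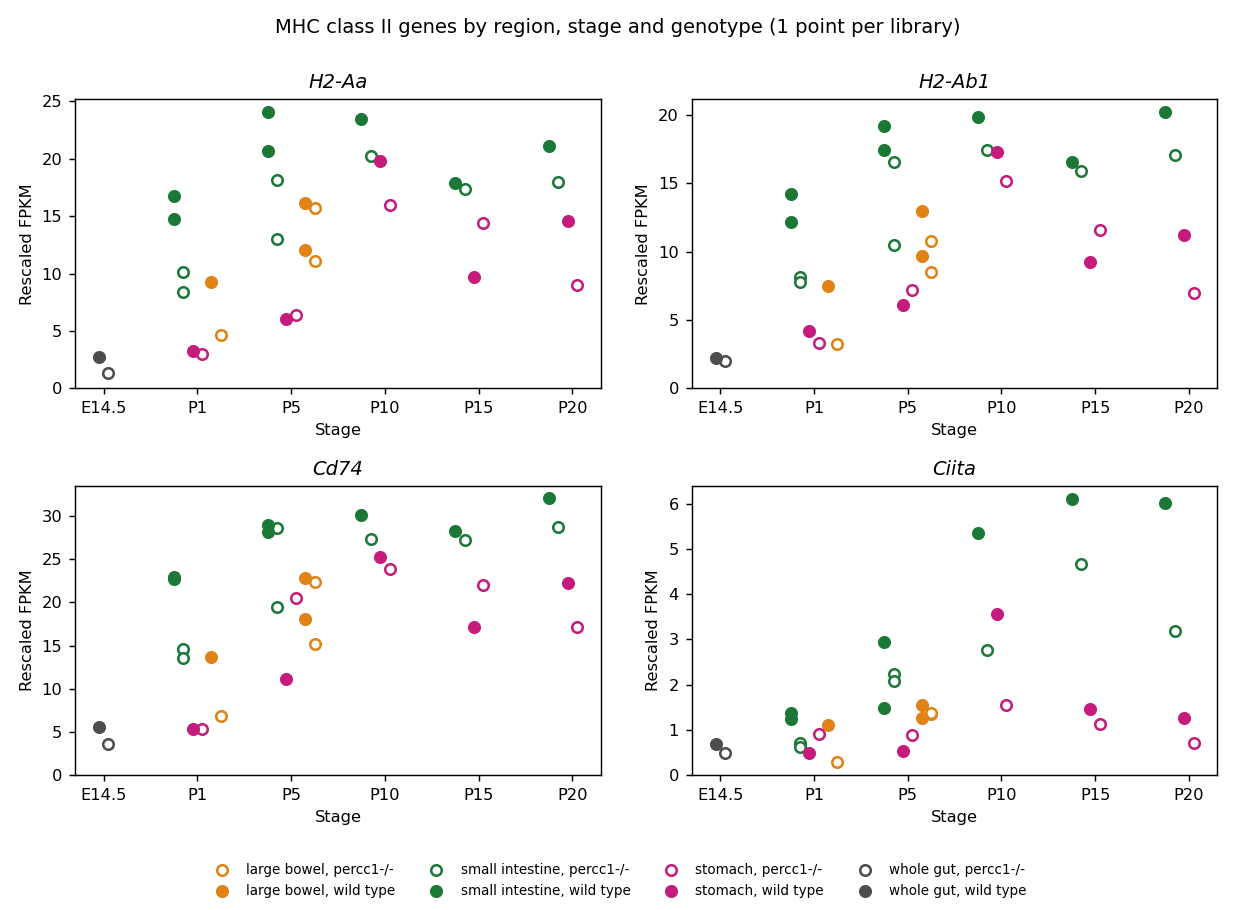
Rescaled FPKM (vertical axis) of H2-Aa, H2-Ab1, Cd74 and Ciita by stage (horizontal axis), 1 point per library, filled for wild type and open for percc1-/-, coloured by region. The highest point of each panel is a small intestine library (24 for H2-Aa, 6.10 for Ciita), and stomach lies higher at P10 than at P1 and P5.

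The 3 chains and Cd74 varied together. Across the 32 libraries, Pearson's r on the log2(rescaled FPKM + 1) scale lay between 0.964 and 0.987 for the 6 pairs among H2-Aa, H2-Ab1, H2-Eb1 and Cd74, and between 0.722 and 0.987 (median 0.891) for all 21 pairs of members. These values describe libraries that share regions, stages and sequencing, and carry no test. Among the postnatal groups the ratio of H2-Eb1 to H2-Ab1 was lowest in younger stomach (P1 and P5; 0.370 to 0.484, 4 libraries), below the 0.593 to 0.684 of older stomach (P10 to P20). The ratio of Cd74 to H2-Ab1 was highest, at 2.84, in the percc1-/- stomach at P5. By Pearson's r, Ciita followed the chains least closely (0.724 to 0.809). Its Spearman's rho with them was 0.886 to 0.923, close to the 0.904 to 0.927 of H2-DMb1. The ratio of Ciita to H2-Ab1 had a median of 0.10 in younger small intestine (0.0808 to 0.212, 8 libraries) and 0.282 in older small intestine (0.158 to 0.369, 6 libraries). Its median was 0.108 in older stomach and 0.129 in large bowel. Set against Ptprc, the leukocyte surface gene CD45, H2-Ab1 had median ratios of 2.73 and 2.77 in younger and older small intestine, while Ciita had 0.297 and 0.759.

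**Figure D2:**
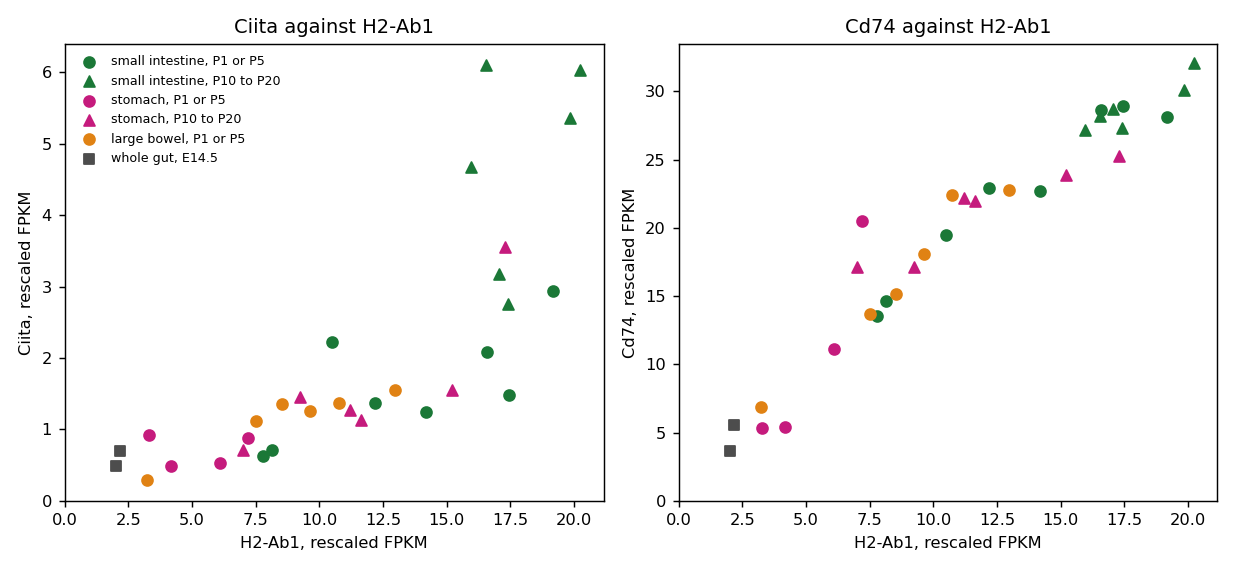
Ciita (left) and Cd74 (right) against H2-Ab1, all in rescaled FPKM, 1 point per library, coloured by region, with triangles for P10 to P20. Cd74 lies at 1.29 to 2.84 times H2-Ab1, and the older small intestine reaches Ciita values up to 6.10, above libraries with similar H2-Ab1.

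Stomach held less of every class II transcript than small intestine. H2-Aa had 3.01 and 3.25 rescaled FPKM in the percc1-/- and wild-type stomach at P1, and 6.38 and 6.06 at P5. In small intestine of the same ages H2-Aa ranged from 8.41 to 24, with a median of 15.8 (8 libraries), so the regions did not overlap. The same was true of H2-Ab1 and H2-Eb1, 3 of 7 members in all, against 12.7% of genes lower in stomach without overlap. At P10 to P20, H2-Aa ranged from 9.01 to 19.8 in bottom stomach (median 14.51) and from 17.4 to 23.4 in small intestine (median 19.1), and these overlapped. At those stages Cd74 was the 1 member without overlap (17.1 to 25.3 against 27.2 to 32.1), against 8.6% of genes.

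With stage and genotype as covariates (10 stomach and 14 small intestine libraries), all 7 members were lower in stomach by limma's test at an adjusted p under 0.05. The background was high: 48.3% of genes passed, and 22.3% passed as lower. Differences are on the log2(rescaled FPKM + 1) scale, which understates the change of low genes such as Ciita. H2-Aa differed by -1.0 ± 0.15 (SE, adjusted p = 1.55e-05), H2-Eb1 by -0.99 ± 0.13 (adjusted p = 2.35e-06) and H2-Ab1 by -0.87 ± 0.12 (adjusted p = 5.51e-06). Cd74, the invariant chain, differed by -0.78 ± 0.15 (adjusted p = 0.000148). For the loading chains the values were -0.93 for H2-DMb1 and -0.73 for H2-DMa, and for the coactivator Ciita -0.87 (adjusted p = 0.0001). The median of the 7 was -0.87, against 0.02 over all genes. Without rescaling, the median of all genes moved to 0.10 and the share of calls that were higher in stomach moved from 53.8% to 65.9%. Without the pair of bottom stomach at P15 all 7 members kept their call, with H2-Aa at -1.1 and Ciita at -0.74. In tissue RNA, fewer cells that carry class II and less class II RNA per cell cannot be told apart, here and in the comparisons that follow.

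Many genes that act around class II were also lower in stomach. Of 8 tested processing genes, 6 were lower and 1 (Ctsd) higher, with Ctss, the cathepsin that trims the invariant chain, at -1.49 ± 0.09 (adjusted p = 3.39e-11). Of 13 tested promoter factors and interferon-gamma signalling genes, 7 were lower, among them Irf1 (-1.43), Ifngr2 (-0.71) and Jak2 (-0.44). The RFX subunits did not pass: Rfx5 had -0.12, Rfxank 0.04 and Rfxap 0.05. Of 7 tested genes of class I and its loading, 6 were lower, among them the immunoproteasome subunits Psmb8 (-1.42) and Psmb9 (-1.37). Near the class II chains, H2-DMb2, a beta chain nearly identical to H2-DMb1, differed by -0.70 (adjusted p = 0.000696), and reads of the 2 genes may have been split between them.

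Markers of cell types differed as well. Of 4 tested dendritic cell markers 3 were lower in stomach: Irf8 (-1.74), Itgax (-1.57) and Batf3 (-0.36). The leukocyte marker Ptprc was lower (-0.57, adjusted p = 0.00231), as were the epithelial markers Vil1 (-1.74) and Epcam (-0.70). Among 10 tested macrophage markers 4 were higher and 2 lower, with Emr1 at 0.40 and Csf1r at -0.48. Both tested B cell markers, Cd22 (-0.59) and Cd79b (-0.63), were lower, as were Cxcl13 (-1.01) and Madcam1 (-0.56), genes of lymphoid tissue. Alb (1.94) and Ahsg (1.71), made by liver, were higher. Summed over 12 dendritic cell genes, stomach libraries held 9.39 to 18.1 rescaled FPKM and small intestine libraries 19.9 to 38.5. Over 10 macrophage genes the ranges were 47.4 to 84.1 and 55.0 to 95.6, and over 5 epithelial genes 81.7 to 158.5 and 129.6 to 231.0. The part of these cells in the class II difference was not tested.

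Large bowel also held less class II RNA than small intestine of P1 and P5. H2-Ab1 had 9.65 and 8.54 rescaled FPKM in wild-type and percc1-/- colon at P5, 13 and 10.8 in rectum at P5, and 7.51 and 3.23 in colon with rectum at P1. The percc1-/- library at P1 was the lowest of the 6. Small intestine ranged from 7.77 to 19.2 (median 13.2, 8 libraries), and the groups overlapped for all 7 members, while 7.61% of genes were lower in large bowel without overlap.

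In limma's test with stage and genotype as covariates, 6 of 7 members were lower in large bowel, against 18.1% of all genes lower and 38.2% called in either direction. H2-DMb1 differed by -0.77 ± 0.17 (SE, adjusted p = 0.00289), H2-Ab1 by -0.69 ± 0.14 (adjusted p = 0.00149), and H2-Eb1, Cd74 and H2-Aa each by -0.57 (adjusted p = 0.00319, 0.0056 and 0.00581). H2-DMa differed by -0.42 (adjusted p = 0.028). Ciita, at -0.34 ± 0.13, missed the threshold (adjusted p = 0.0604). Without the pair of colon with rectum at P1, 1 member, H2-Ab1, passed. Irf1 (-1.09) and Psmb8 (-1.35) were lower too. Of 4 tested dendritic cell markers 2 were lower (Irf8 -0.73, Itgax -0.80) and 2 had positive values that did not pass. Of 11 tested macrophage markers 3 were lower, among them Csf1r (-0.98), and Cd14 (1.55) and Mrc1 (0.48) were higher. All 5 tested epithelial markers had negative values (median -0.31), and 2 were lower, among them Vil1 (-0.54), while Epcam (-0.15, adjusted p = 0.141) did not pass. All 6 pan-leukocyte genes had positive values and 0 passed, with Ptprc at 0.41 (adjusted p = 0.0635). The part of these cell markers in the difference was not tested.

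Top and bottom small intestine could be compared at P1 and P5, with 4 libraries each. Cd74 ranged from 13.6 to 28.7 rescaled FPKM in the top part and from 14.6 to 29.0 in the bottom part, and H2-Aa from 8.41 to 20.7 and from 10.2 to 24. The parts overlapped for both genes. None of the 7 members passed limma's test, where 0.00779% of genes did, and 0 had an unadjusted p under 0.05. The log2 differences, bottom minus top, lay between -0.17 for H2-Eb1 (95% confidence interval -0.50 to 0.16) and 0.23 for H2-DMb1 (-0.33 to 0.78).

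With age, Ciita rose in the small intestine. The other members had positive differences too, and of these H2-Eb1 passed limma's test, though in few of the alternative settings. In wild-type libraries Ciita had 1.37 (top) and 1.25 (bottom) rescaled FPKM at P1, 2.94 and 1.48 at P5, then 5.36 in the bottom part at P10, 6.10 in the top part at P15 and 6.03 in the bottom part at P20. In percc1-/- libraries it had 0.628 and 0.716 at P1, 2.08 and 2.23 at P5, then 2.76, 4.67 and 3.18. Wild-type libraries of P10 to P20 were above all younger libraries, while the percc1-/- library of P10 lay under the wild-type top part at P5. No member separated the ages without overlap over both genotypes (0.911% of genes were higher without it).

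Older minus younger, with part and genotype as covariates (6 against 8 libraries), Ciita rose by 1.19 ± 0.20 on the log2 scale (SE, limma adjusted p = 0.00624). H2-Eb1 also passed, at 0.62 ± 0.17 (adjusted p = 0.0497). These were 2 of 7 members, against 5.91% of genes called and 3.4% called as higher. The other 5 members had positive differences that did not pass: H2-Ab1 had 0.46 (adjusted p = 0.112), H2-DMb1 0.44 (0.216), Cd74 0.41 (0.12), H2-Aa 0.35 (0.226) and H2-DMa 0.34 (0.314). H2-Eb1 kept its call in 1 of 16 alternatives, and Ciita in 14, losing it in the bottom part alone (1.13, adjusted p = 0.154) and without the top part at P15 (1.13, adjusted p = 0.0843). Age and part are not fully separate, since P15 came from the top part and P10 and P20 from the bottom part. Whether Ciita rose more than the chains, or H2-Eb1 more than the other chains, was not tested. The record of Ciita did not have the same span in every library, and the part of this in its rise was not tested.

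H2-DMb2 and B cell markers were higher at the later stages. H2-DMb2 rose by 0.86 (adjusted p = 0.0339), from a median of 1.38 to 2.99 rescaled FPKM. Summed over 5 other class II chains, H2-DMb2 among them, wild-type libraries held 1.62 to 3.24 at P1 and P5 and 4.18 to 12.4 later, and percc1-/- libraries 0.888 to 2.89 and 3.32 to 5.62. All 4 tested B cell markers rose, among them Cd79a by 1.15 (adjusted p = 0.0136), Cd79b by 1.12 and Cd22 by 0.50. Summed over 10 B cell genes, the level in wild-type small intestine was 2.53 to 7.07 rescaled FPKM at P1 and P5 and 15.3 to 26.2 at P10 to P20, and in percc1-/- libraries 1.88 to 6.79 and 5.92 to 17.8. Over all 32 libraries Pax5 was listed at 0 in 7 and Ms4a1, which encodes CD20, in 5. Itgax (0.66, adjusted p = 0.0884) and Ptprc (0.52, adjusted p = 0.093) did not pass, and none of 10 macrophage markers did, of which 9 had negative values. The part of B cells in the rise of Ciita was not tested. Of 13 promoter factors and signalling genes, 0 passed, with Rfx5 at 0.31 and Irf1 at 0.34, and of 8 processing genes Ctsd fell (-0.38, adjusted p = 0.0295).

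In stomach the chains were higher in the older libraries, all of the bottom part, than in the younger ones, all of the whole organ. H2-Eb1 had 1.47 and 1.54 rescaled FPKM at P1 (percc1-/- and wild type) and 3.14 and 2.95 at P5. In bottom stomach it had 9.01 and 11.4 at P10, 7.54 and 5.75 at P15, and 4.55 and 7.66 at P20. Within that part it was lower at P20 than at P10 in both genotypes. The older libraries lay above the younger ones with no overlap, which held for H2-Aa and H2-DMa also, against 8.12% of all genes. For the other 4 members the ages overlapped. Younger libraries held the whole organ and older ones the bottom part, so age and part of the stomach cannot be told apart.

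By limma's test with genotype as a covariate, 5 of 7 members were higher in the older libraries, against 17.3% of genes called and 8.16% called as higher. H2-Aa differed by 1.4 ± 0.25 (SE, adjusted p = 0.00594), H2-Eb1 by 1.39 ± 0.24 (adjusted p = 0.00527) and Cd74 by 1.12 ± 0.31 (adjusted p = 0.0353). The values were 1.06 ± 0.25 for H2-Ab1 (adjusted p = 0.0205) and 0.73 ± 0.22 for H2-DMb1 (adjusted p = 0.0478). H2-DMa (0.63, adjusted p = 0.0693) and Ciita (0.55, adjusted p = 0.142) did not pass, though both did in FPKM as deposited (0.80, adjusted p = 0.0252, and 0.69, adjusted p = 0.0499). No member passed without the P1 pair (H2-Eb1 1.05, adjusted p = 0.0814) or in wild-type libraries alone (1.5, adjusted p = 0.0642). Without the pair of bottom stomach at P15, H2-Aa (1.49, adjusted p = 0.023) and H2-Eb1 (1.46, adjusted p = 0.0255) passed. Without rescaling, the median of all genes moved from -0.01 to 0.19 and the share of calls that were higher from 47.3% to 76.6%.

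Among 13 tested promoter factors and signalling genes, Ifngr1 (0.49), Irf1 (0.51) and Ifngr2 (0.32) were higher in the older stomach libraries. Among 5 tested epithelial markers, Vil1 (0.64), Krt20 (1.01) and Cdh1 (0.45) were higher. Of all genes, 8.16% were called as higher. Leukocyte markers did not pass: Ptprc had 0.09, Csf1r -0.21 and Emr1 -0.31. No B cell marker reached the minimum level for the test in stomach. The part of the epithelium in the class II difference was not tested. Whether the difference between older and younger libraries was unlike in small intestine and stomach, for Ciita or the chains, was not tested either.

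**Figure D3:**
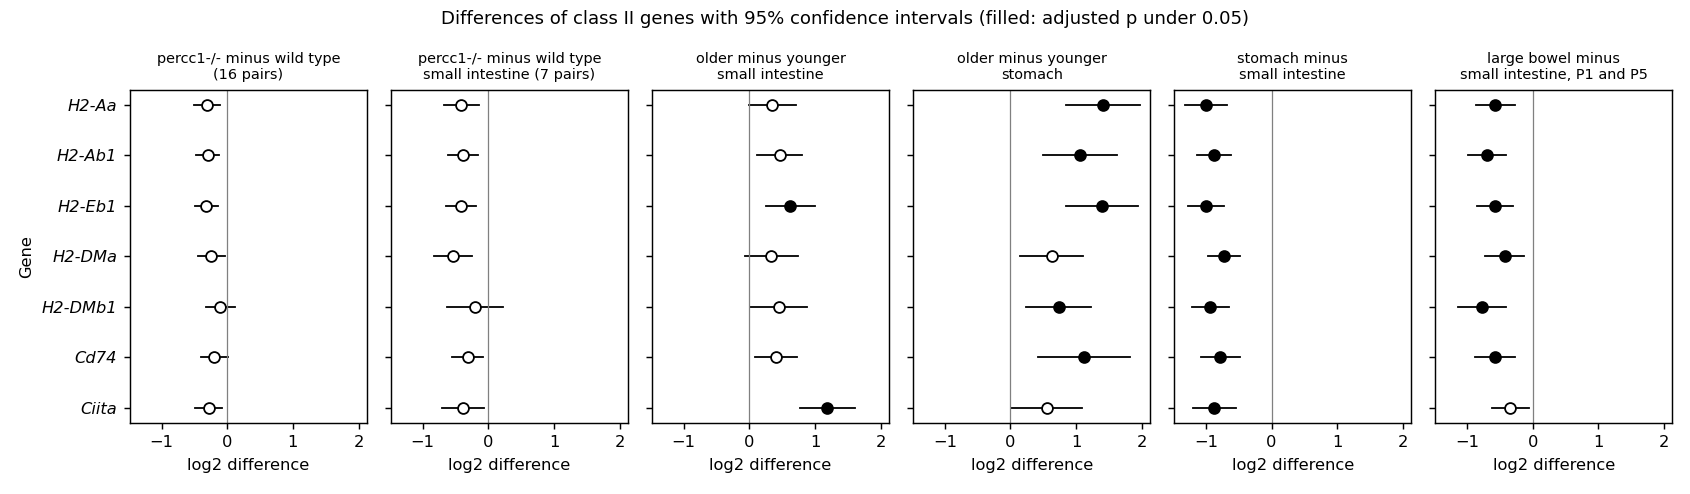
Log2 difference of each member (points) with its 95% confidence interval (bars) in 6 comparisons, filled where the adjusted p was under 0.05. All 7 members are filled for stomach minus small intestine, and 0 of 7 for percc1-/- minus wild type.

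Between genotypes, class II transcripts were lower in the percc1-/- library of most pairs, but no member passed the test over all genes. Over the 16 pairs, H2-Aa, H2-Ab1 and H2-Eb1 were each lower in the percc1-/- library of 14 pairs, H2-DMa and Cd74 of 13, Ciita of 12 and H2-DMb1 of 9. The 2 pairs that ran against the chains were stomach at P5, where 7 of 7 members were higher in percc1-/-, and bottom stomach at P15, where 6 were higher. At P5, Cd74 had 20.5 rescaled FPKM in percc1-/- stomach and 11.1 in wild type. The P15 pair holds the library that stood apart.

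In limma's test with the pair as a block, 0 of 7 members passed, against 0.857% of genes called, or 0.478% called as lower. The differences were -0.32 ± 0.08 for H2-Eb1 (SE, 95% confidence interval -0.49 to -0.15, adjusted p = 0.0771), -0.31 ± 0.09 for H2-Aa (adjusted p = 0.12) and -0.29 ± 0.08 for H2-Ab1 (adjusted p = 0.108). Ciita had -0.28 (adjusted p = 0.206), H2-DMa -0.25 (0.269), Cd74 -0.20 (0.41) and H2-DMb1 -0.11 (0.726). At an unadjusted p under 0.05 there were 5 of 7, against 13.1% of all genes. The median of the 7 was -0.28, against -0.001 over all genes. Without bottom stomach at P15, H2-Eb1 passed (-0.36, adjusted p = 0.0332). Without that pair and the E14.5 whole gut, a setting chosen after seeing the data, H2-Eb1 (-0.35, adjusted p = 0.0348) and H2-Ab1 (-0.35, adjusted p = 0.0448) passed.

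The H2 genes share chromosome 17 with the targeted locus, where 4.62% of 628 tested genes were called between genotypes. Of the 60 genes within 500 kb of the class II span, 36 were tested, and 1 was called, C4b, a complement gene, which was higher in percc1-/- (0.97, adjusted p = 0.038). For the 5 H2 genes, an effect of the deletion and one of stem cell alleles that travel with it cannot be told apart. Ciita and Cd74, on other chromosomes, had differences of -0.28 and -0.20.

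**Figure D4:**
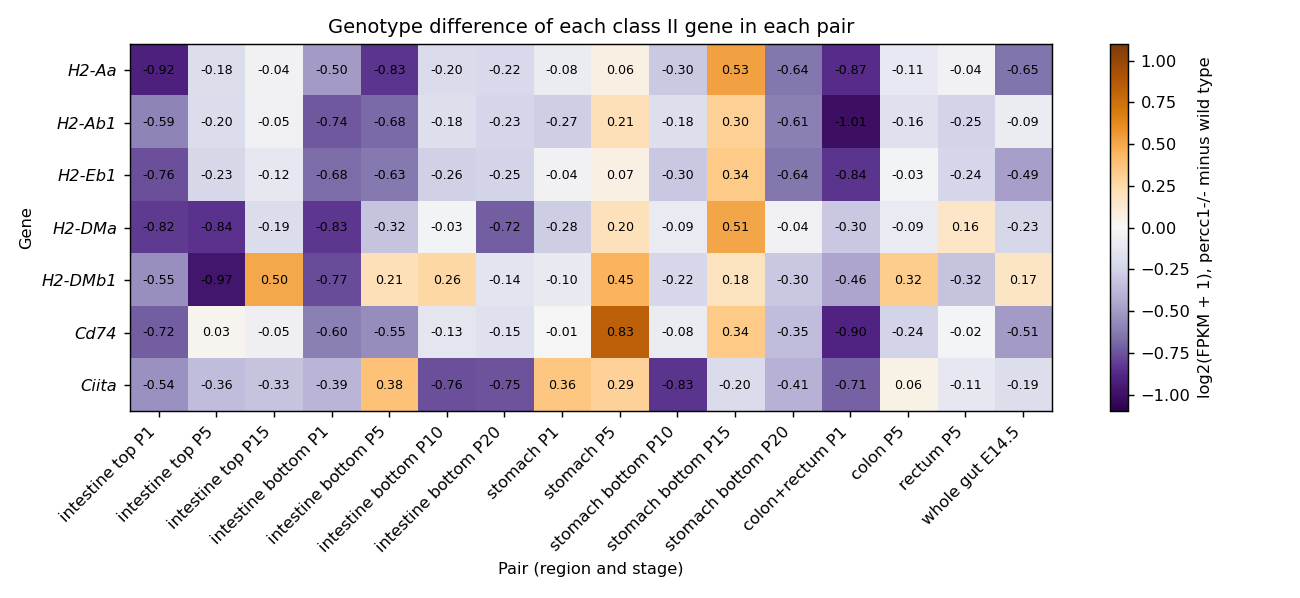
Log2 difference, percc1-/- minus wild type, of each member (rows) in each pair of libraries (columns), from purple (lower in percc1-/-) to orange (higher). Most cells are purple, and the orange cells gather in stomach at P5, bottom stomach at P15 and the row of H2-DMb1.

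In small intestine the mean genotype difference was more negative at P1 and P5 than later for 6 of the 7 members, by margins that did not pass a test. H2-DMa had 1.75 and 3.85 rescaled FPKM at P1 (percc1-/- and wild type) and 3.35 and 6.80 at P5 in the top part, and 2.08 and 4.45 at P1 and 3.52 and 4.65 at P5 in the bottom part. The 4 percc1-/- libraries lay under the 4 wild-type ones with no overlap, which 4.59% of genes did as well. At later stages H2-DMa had 6.65 and 6.84 at P10, 3.69 and 4.36 at P15, and 3.04 and 5.67 at P20. The genotypes then overlapped.

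H2-Aa at P1 had 8.41 and 16.8 rescaled FPKM in the top part and 10.2 and 14.8 in the bottom part (percc1-/- and wild type). At P5 it had 18.1 and 20.7 in the top part and 13 and 24 in the bottom part. At P10 the values were 20.2 and 23.4, at P15 17.4 and 17.9, and at P20 18 and 21.1. The percc1-/- value was the lower one in 7 of 7 pairs, as it was for H2-Ab1, H2-Eb1 and H2-DMa, while the ranges of the genotypes overlapped. Of all genes tested, 231 (1.80%) were lower in 7 of 7 pairs.

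In limma's test over the 7 pairs, 0 of 7 members passed, against 0.117% of genes. An unadjusted p under 0.05 was found for 6 members and for 10.04% of all genes. H2-DMa had -0.54 ± 0.13 (SE, adjusted p = 0.204), H2-Eb1 -0.42 ± 0.10 (adjusted p = 0.204), H2-Aa -0.41 ± 0.12 (adjusted p = 0.281) and H2-Ab1 -0.38 ± 0.10 (adjusted p = 0.238). Ciita had -0.39 (adjusted p = 0.405), Cd74 -0.31 (0.355) and H2-DMb1 -0.21 (0.763). In stomach no member passed (0.0225% of genes did, and 0 members had an unadjusted p under 0.05), and the values ran from -0.16 for Ciita to 0.14 for Cd74. Without the P15 pair there, H2-Aa moved from -0.09 to -0.24 and Cd74 to 0.095. In large bowel 0 passed either, against 0.0149% of genes and with 0 at an unadjusted p under 0.05. All 7 values were negative there, from -0.47 for H2-Ab1 to -0.08 for H2-DMa, over 3 pairs. Few genes lie behind these calls, and scaling moved their balance: higher ones made up 33.3% of 15 in small intestine, or 47.8% of 23 when scaled to named records, and 0% of 2 in large bowel, or 42.9% of 7 without rescaling.

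The genotype effects of regions and ages were compared by interaction terms. Stomach minus small intestine, the difference was positive for all 7 members, from 0.21 for H2-DMb1 to 0.60 for H2-DMa, and 0 passed (adjusted p from 0.895 for H2-DMa to 1.0; 0.0152% of all genes called). An unadjusted p under 0.05 was found for 2 members and for 4.70% of all genes. Older minus younger small intestine, it was positive for 6 members and -0.38 for Ciita, and 0 passed (adjusted p from 0.818 to 0.845; 0% of all genes called). An unadjusted p under 0.05 was found for 3 members and for 5.84% of all genes. For H2-Aa the mean log2 difference was -0.61 in the 4 younger pairs and -0.16 in the 3 older ones. Ciita had -0.23 and -0.61. Without rescaling, the median of the age term over all genes moved from -0.01 to 0.14. Without bottom stomach at P15 the region term was 0.48 for H2-DMa (adjusted p = 0.89).

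Of the partner genes, Irf1, an interferon-induced factor that acts on the Ciita promoter, was lower in percc1-/- over all pairs (-0.37 ± 0.06, SE, adjusted p = 0.00304). It was the 1 gene called among 13 tested promoter factors and signalling genes. Rfx5 had -0.21 (adjusted p = 0.304) and Ifngr1 0.18 (adjusted p = 0.27). Interferon-gamma itself (Ifng) was listed at 0 in 27 of 32 libraries and reached 0.0922 rescaled FPKM. None of the 8 processing genes, the 7 class I genes or the tested cell type markers passed between genotypes over all pairs. Of the class I genes, 6 were negative and 1 positive (median -0.12). An unadjusted p under 0.05 was found for 4 of them, against 13.1% of all genes. In small intestine all 7 class I genes were negative (median -0.26), and 3 had an unadjusted p under 0.05. Over all pairs, cell markers had these values. Itgax had -0.38 (adjusted p = 0.171), Emr1 -0.18 (0.306), Ptprc -0.03 (0.939) and Epcam 0.04 (0.826). In small intestine all 4 B cell markers tested were negative, with a median of -0.52. All 4 had an unadjusted p under 0.05, against 10.04% of all genes, and 0 passed. There all 6 pan-leukocyte genes were negative too (median -0.13, 1 at an unadjusted p under 0.05). The 4 tested genes of lymphoid tissue were also negative (median -0.39, 2 at an unadjusted p under 0.05). Dendritic cell markers were negative in 2 of 4 cases and macrophage markers in 6 of 10.

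Leukocyte marker levels also differed within pairs. In stomach at P5, where the 7 members were all higher in percc1-/-, the summed level of 6 pan-leukocyte genes was 2.04 times that of wild type and the summed level of 10 B cell genes 5.30 times. In bottom stomach at P15 the leukocyte ratio was 1.46, and in the P1 small intestine pairs it was 0.774 (top) and 0.578 (bottom). In colon with rectum at P1 the class II sum was 0.488 times that of wild type while the leukocyte ratio was 1.21. Over the 7 small intestine pairs the ratio of summed levels ran from 0.647 to 0.983 for 12 dendritic cell genes, from 0.842 to 1.35 for 10 macrophage genes, from 0.281 to 0.960 for the B cell genes and from 0.898 to 1.34 for 5 epithelial genes. Over the 16 pairs the chain difference and the leukocyte difference had a Pearson's r of 0.47 and a Spearman's rho of 0.44, given as a description. Of the 6 leukocyte genes, Cd52 (median 7.11) was listed at 0 in the wild-type bottom small intestine at P20, which lowers the sum there. Between the chain difference and the difference in the share of FPKM in named records, r was 0.48 and rho 0.21. These values include the bottom stomach pair at P15, with shares of 60.2% (percc1-/-) and 33.3% (wild type). They were not computed without it. Summed levels of pancreas and liver markers differed within pairs of P1 and P5 too, although no such gene passed the test over all pairs. Summed over 6 exocrine pancreas genes, small intestine held 9.14 to 122 rescaled FPKM in wild type (median 51.2) and 7.77 to 24.4 in percc1-/- (median 9.33). Whole stomach held 54.6 and 63.9 in wild type and 2.48 and 18 in percc1-/-. Over 5 liver genes, small intestine held 26.5 to 41.5 in wild type and 16.8 to 27.9 in percc1-/-, so both sums overlapped there. In stomach at P5, where all 7 members were higher in percc1-/-, the liver sum was 166 in percc1-/- and 19.3 in wild type. The part of cell content, of neighbouring organs and of library make-up in the genotype differences was not tested.

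Genes whose level followed the mean of H2-Aa, H2-Ab1 and H2-Eb1 most closely across the 32 libraries included Rps6ka1 (Pearson's r = 0.846), Atp9a and 2210404O07Rik (both 0.845), Parp10 (0.840), Cx3cl1 (0.836), Cdkn2b (0.835), Acad10 and Arhgef16 (both 0.834) and Bco2 (0.832). Of 13185 genes, 42 had r over 0.8, and the median was -0.04. Cd74 had 0.972, H2-DMa 0.899, H2-DMb1 0.887 and Ciita 0.776. Markers had lower values: 0.786 for Itgax, 0.679 for Vil1, 0.671 for Epcam, 0.617 for Ptprc, 0.563 for Csf1r and 0.049 for Emr1. The libraries share regions and ages.

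Across the 16 genotype differences, in which region and age are the same within a pair, another set of genes came closest. These were Cd4 (r = 0.900), a marker of helper T cells that some macrophages and dendritic cells also carry, Mpeg1 (0.808), a macrophage gene, Sept9 (0.804), Ms4a6b (0.781) and Dnase1l3 (0.769). Csf1r had 0.742, Ptprc 0.617, Emr1 0.579 and Itgax 0.539, while Vil1 had 0.156 and Epcam 0.111. Cd74 had 0.888 and Ciita 0.266. The 16 pairs share stages, and perhaps animals.

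The remaining class II chains were scarce. H2-Oa and H2-Ob, which encode the DO molecule that restrains DM in B cells, had medians of 0.305 and 0.249 rescaled FPKM over the 32 libraries. H2-Ob reached 3.82. H2-Eb2 was listed at 0 in 4 libraries and H2-Ea-ps, the pseudogene form of the I-E alpha chain, in 30 of 32. H2-DMb2 was the 1 of these that reached the level for testing, and over all pairs it had -0.29 (adjusted p = 0.192) between genotypes.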

How the data were processed

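Total RNA libraries of mouse gut were sequenced, 1 per region, stage and genotype. The authors deposited 1 gene table per library with FPKM and its bounds. The submitters' processing notes name TopHat2 2.0.13, SAMtools 0.1.18, Cufflinks 2.2.1 and mm9. Neither the gene annotation nor the strand setting used for counting is given in the sources used here. Depth is unknown, since the tables hold no counts.

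Records of one symbol were summed. A record that merged several genes left them missing (1563 genes in some library), except where the extra symbols were small RNAs: Cd74 shared its record with Mir5107 and was kept, and the other 6 members stood alone. FPKM values were rescaled by median ratio. Tests used limma 3.58.1 in R 4.3.3, with trended and robust variance, on log2(rescaled FPKM + 1), where a gene averaged 1 FPKM or more. A pseudocount of 0.1 was an alternative. P-values are two-sided and Benjamini-Hochberg adjusted over all genes tested, with calls under 0.05. Genotype fits had the pair as a block, and the pairing came from region and stage in the labels, which carry no replicate numbers. Scripts were checked on simulated data in which 200 genes had been changed.

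The members and lists were chosen with earlier results of these data known. All 7 members are named, up to 4 called genes of each list and fixed cell markers, the 10 and 5 genes most like the chains, and called neighbours within 500 kb. Genes beyond 4 in a list, and factors named with values that did not pass, were chosen after their values were seen. Some genes that this rule names are not reported here.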

Additional observations from a re-analysis of the deposited data

Results flagged for a closer look

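Of 28 groups of 4 to 10 libraries tested, 2 held a library farther from the others than Dixon's 95% limit allows, both for H2-DMa. Among the percc1-/- libraries of small intestine, the bottom part at P10 was the highest, at 6.65 rescaled FPKM, with a gap to the next library of 0.605 of the whole range. Among the wild-type libraries of stomach, the bottom part at P10 was the highest, at 4.55 rescaled FPKM, with a gap of 0.766 of the range. For like libraries, chance flags about 1 in 20 groups. These groups joined the stages and parts of a region, so that rate may not hold here.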

How the results depend on the processing

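Of 1146 values of the 7 members under alternative settings, 1064 kept their direction and their side of the threshold, 48 lost a call, 11 gained one and 23 changed sign, none of those called. All 133 values for stomach minus small intestine kept their call.

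Between genotypes over all pairs, the number of members called was 0 in the main fit, 0 to 1 when leaving out 1 pair at a time, and 2 without bottom stomach P15 and the whole gut. Without the pair as a block it stayed 0, and H2-Eb1 kept a difference of -0.32. For age in small intestine the main count was 2. It was 1 with a pseudocount of 0.1, with no filter, with FPKM as deposited, scaled to named records, with unnamed records added, without the trend and robust options, with the pair as a random block, and in wild-type libraries only. It was 0 in the bottom part only, and 0 to 4 when leaving out 1 pair, with 0 without the top part at P15 and 4 without the top part at P5. For age in stomach the main count was 5. It was 7 with FPKM as deposited, where H2-DMa and Ciita gained calls, 3 with no filter or with unnamed records added, 0 in wild-type libraries only, and 0 to 4 when leaving out 1 pair (0 without P1, 2 without bottom stomach P15, 3 without bottom stomach P10 or P20). With the pair as a random block it was 4, and H2-DMb1 lost its call (adjusted p = 0.0587). For large bowel minus small intestine the main count was 6, and it was 1 to 7 when leaving out 1 pair, with 1 without colon with rectum at P1. With stage and genotype as a replicate block it was 7, Ciita included (adjusted p = 0.0323), and Ciita also passed with FPKM as deposited (adjusted p = 0.0476) and without the trend and robust options (adjusted p = 0.0452). For age in small intestine the block cost H2-Eb1 its call (adjusted p = 0.0672), and it changed no other call. The cause of these shifts was not tested.

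Signs changed as follows. For genotype in stomach, H2-DMb1 was -0.016 as deposited and -0.0034 scaled to named records, against 0.0020. When leaving out 1 pair, H2-DMb1 ran from -0.11 to 0.078, Cd74 from -0.026 to 0.27, H2-DMa from -0.053 to 0.14, H2-Aa from -0.24 to 0.053, H2-Ab1 from -0.21 to 0.018 and H2-Eb1 from -0.23 to 0.016. For genotype in large bowel, H2-DMa ran from -0.20 to 0.035 and H2-DMb1 from -0.39 to 0.0028. For bottom minus top small intestine, H2-DMb1 ran from -0.089 to 0.54, H2-Aa from -0.12 to 0.038, H2-Ab1 from -0.37 to 0.13, H2-Eb1 from -0.36 to 0.020, H2-DMa from -0.21 to 0.17 and Cd74 from -0.25 to 0.045. The bounds deposited with each FPKM value had a median half-width of 46.2% of the value for Ciita, 34.3% for H2-DMa and 31.9% for H2-DMb1, and of 12.4% to 14.9% for the other 4 members.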
